A study of Mus musculus with 12 samples.

Results

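The replication-dependent histone genes of mouse were followed from the resting B cell to the plasmablast. They were chosen by name alone, as rows of the count table whose symbol, present or older, belongs to the H1, H2A, H2B, H3 or H4 genes of the histone clusters. This gave 69 of 27179 genes. Of these, 6 encode linker histone H1, 19 H2A, 19 H2B, 12 H3 and 13 H4, and 2 (H2af-ps2 and H2bu1-ps) are annotated as pseudogenes. H4bc24 was counted with H2B, after its older name Hist1h2br. On chromosome 13 lie 55 of them, on chromosome 3 another 10, on chromosome 11 another 3 and on chromosome 6 the remaining 1. A further 2 annotated genes with such names were not analysed here.

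RNA-Seq covered 12 libraries, 2 biological replicates for each of 6 groups, all from the spleens of male C57BL/6 mice aged 6 to 12 weeks. Naive B cells were untreated and sorted as TCRβ-, B220+, IgM+ and IgD high. B cells were activated with lipopolysaccharide (LPS), a bacterial ligand that B cells sense through Toll-like receptor 4, and undivided cells (CD69+, with the brightest CellTrace Violet label) were sorted after 3 h, 10 h and 33 h. On day 4 the culture was sorted into expanded B cells, which carry CD22 and lack CD138, and plasmablasts, which carry CD138 (syndecan-1) and lack CD22. In such bulk samples, fewer cells that express a gene and less RNA per cell cannot be told apart.

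DNA copied in S phase has to be wrapped in newly made histones. The core histones H2A, H2B, H3 and H4 form the nucleosome, and H1 binds the linker between nucleosomes. Each is encoded by several intronless genes, many of them nearly identical for the core histones, that are transcribed in S phase. Their messengers are the only known metazoan mRNAs that normally lack a poly(A) tail, ending instead just after a stem-loop in the 3′ UTR that is bound by the stem-loop binding protein SLBP. Some of these genes also make transcripts that run past the stem-loop to a polyadenylation signal, as described in differentiated and resting cells. The libraries were made from poly(A) RNA, so the values below are of histone RNA that passed this selection, and how much of the histone RNA of a cell that is was not tested.

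The stem-loop carries the feature that sets these messengers apart, so it is shown for 7 genes that lead the results below. Capitals mark the stem, loop and stem, as a script found them in GENCODE transcripts of GRCm38, the build (mm10) of the counts. All 7 lie in the 3′ UTR.

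H1f2: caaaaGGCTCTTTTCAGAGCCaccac
H2ac18: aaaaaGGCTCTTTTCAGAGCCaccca
H2ac19: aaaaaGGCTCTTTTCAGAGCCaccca
H2bc11: ccaaaGGCTCTTTTCAGAGCCacgca
H3c3: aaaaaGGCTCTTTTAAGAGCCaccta
H3c1: ccaaaGGCTCTTTTCAGAGCCacaca
H4c9: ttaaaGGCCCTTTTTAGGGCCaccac

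The histone stem-loop was matched in 46 of the 68 members that have a GENCODE transcript, against 39 of 58725 other protein-coding transcripts (0.0664%). The remaining 22 include genes whose annotated transcript stops before a 3′ UTR. The form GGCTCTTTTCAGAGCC was the commonest, in 26 members, followed by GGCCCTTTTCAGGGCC in 7 and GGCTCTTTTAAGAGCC in 6. In 23 members an annotated transcript goes on for more than 100 bases past the stem-loop, and in the other 23 every one ends within 100 bases. H1f2 (chr13:23738807-23739531) is of the longer kind, with 840 bases after the stem-loop, as is H4c9 (chr13:22040960-22041362) with 330. H2ac18 (chr3:96245497-96246052) and H2ac19 (chr3:96239779-96240374) end 35 bases after it, H2bc11 (chr13:22043198-22043658) 23 bases, H3c1 (chr13:23761885-23762386) 37 bases and H3c3 (chr13:23745042-23745521) 74 bases after it.

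Upstream of the start, 3 promoters are shown because they belong to genes that were near 0 before 33 h or, for H4c9, led their type throughout. Each line gives the 250 bases before the annotated start (RefSeq, GRCm38.p6), with matches in capitals to the octamer ATTTGCAT, to TATAAA and to CCAAT on either strand. H2bc12 is taken from chr13:22035571-22035820 on the plus strand, H3c3 from chr13:23745522-23745771 and H4c9 from chr13:22041363-22041612, both on the minus strand.

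H2bc12: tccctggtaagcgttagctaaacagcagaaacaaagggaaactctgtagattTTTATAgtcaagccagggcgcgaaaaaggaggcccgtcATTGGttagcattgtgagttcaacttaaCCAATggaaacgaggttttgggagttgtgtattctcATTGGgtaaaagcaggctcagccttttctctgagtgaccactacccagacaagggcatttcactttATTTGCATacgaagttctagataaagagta
H3c3: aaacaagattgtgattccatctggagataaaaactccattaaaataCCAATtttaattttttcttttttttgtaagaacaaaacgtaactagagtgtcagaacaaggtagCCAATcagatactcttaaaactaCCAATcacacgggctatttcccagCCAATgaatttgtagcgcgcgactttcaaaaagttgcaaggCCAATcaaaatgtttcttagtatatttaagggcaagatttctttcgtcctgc
H4c9: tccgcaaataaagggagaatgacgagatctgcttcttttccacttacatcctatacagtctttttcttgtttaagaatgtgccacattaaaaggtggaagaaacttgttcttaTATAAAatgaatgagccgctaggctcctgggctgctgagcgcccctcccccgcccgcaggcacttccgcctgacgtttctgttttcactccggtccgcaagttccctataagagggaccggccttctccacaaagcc

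No match overlaps another in these 3 windows. Over windows that run 50 bases past the start as well, 62 members had a promoter sequence. ATTTGCAT was present in 21% of them and in 1.75% of all 27025 promoters. By type it was in 38.9% of H2A and 37.5% of H2B promoters, and in 0 of the 6 H1, 10 H3 and 12 H4 promoters. CCAAT was in 100% of the H1, H2A, H2B and H3 promoters, in 25% of the H4 promoters and in 37.9% of all promoters. TATAAA was in 56.5% of member promoters and in 14.2% of all. A match describes letters and does not show that a factor binds.

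Total counts ran from 23026619 to 60585587 per library, so that 3 counts, the most that a count of 0 allows, are 0.0495 to 0.13 CPM (counts per 1000000 of the library's total). Such limits cover counting error only. The B cell markers Cd79a, Cd79b, Ms4a1, Cd22 and Pax5 were present in every library, and the plasmablast markers summed to 16396 and 16909 CPM in plasmablasts against 362 to 2684 CPM elsewhere. The naive libraries stood apart. Their 10 myeloid markers summed to 277 and 123 CPM and their 6 measured erythroid markers to 197 and 147 CPM, against 0.372 to 37.5 and 0.347 to 2.11 CPM in all other libraries. All 9 tested myeloid, all 4 tested erythroid and 6 of 9 tested T cell markers fell from naive to 3 h. The 10 T cell markers summed to 68.8 and 73.1 CPM in naive cells, to 23.3 to 44.2 CPM from 3 h to expanded B cells and to 76.8 and 83.8 CPM in plasmablasts, where Cd28 alone held 64.3 and 71.6 CPM. Single markers of a list differed. Lyz2 and S100a8 held at most 2 counts and 0 counts after the naive stage, while the 10 myeloid markers summed to as much as 37.5 CPM there. The T cell gene Cd3e held 9 and 3 counts in naive libraries and at most 1 in the others. The part of other cells in the naive histone values was not tested.

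As a whole, the histone genes were low after activation and high again before the first division. Their summed level was 110 and 105 CPM in naive cells, 44.5 and 63 CPM at 3 h, 46.9 and 42.4 CPM at 10 h, 144 and 175 CPM at 33 h, 134 and 109 CPM in expanded B cells and 142 and 130 CPM in plasmablasts. Both libraries at 33 h lay above both at 10 h. Which of 33 h and plasmablasts is higher depends on the scaling. With TMM-scaled library sizes the mean sum was 166 CPM at 33 h, 128 CPM in expanded B cells and 188 CPM in plasmablasts. The types did not share this course. H3 summed to 4.23 and 2.94 CPM at 10 h and to 43.8 and 52.5 CPM at 33 h, then to 27.2 and 20.5 CPM in expanded B cells and 19.2 CPM in each plasmablast library. H4 went from 3.58 and 3.29 CPM at 10 h to 18.7 and 24 CPM at 33 h, and its values in expanded B cells (22.3 and 19.2 CPM) and plasmablasts (20.8 and 17.3 CPM) overlapped with these. The direction from expanded B cells to plasmablasts depends on the scaling for both types. With TMM-scaled library sizes the mean went from 25.1 to 26.6 CPM for H3 and from 21.9 to 26.2 CPM for H4.

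**Figure D1:**
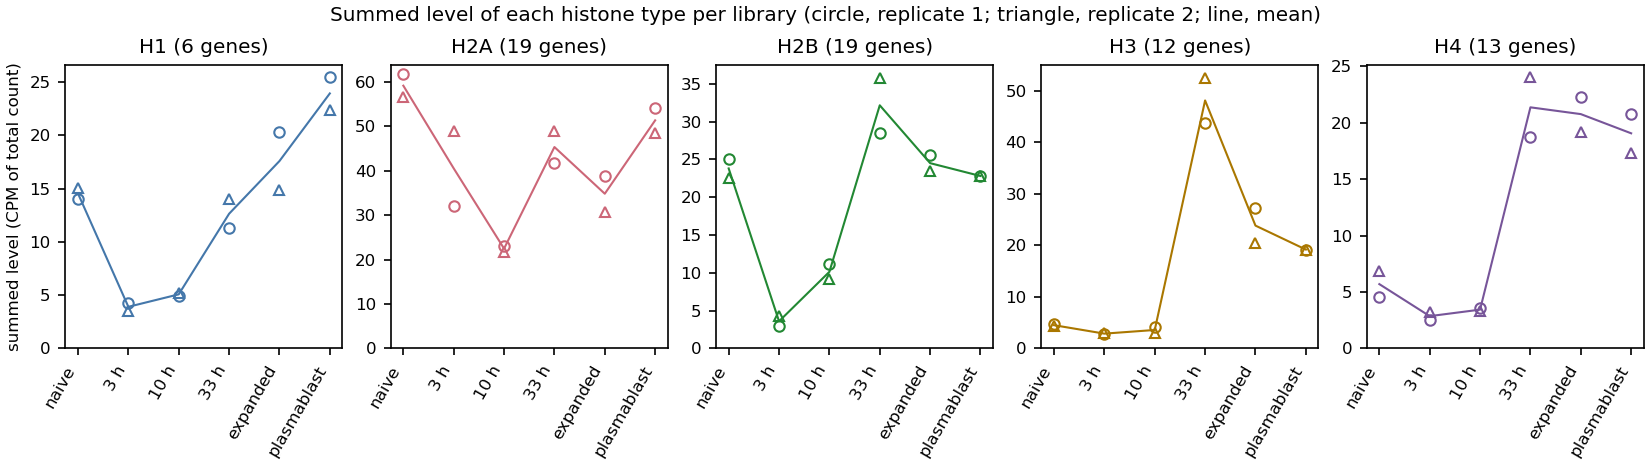
Summed level of the genes of each histone type (CPM of the total count, vertical axis from 0) at the 6 stages, with a point per library and a line through the mean of 2 libraries. H3 and H4 are below 7 CPM in every library before 33 h, whereas H2A is at 61.7 and 56.5 CPM in naive cells.

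H2A and H1 were different. H2A stood at 61.7 and 56.5 CPM in naive cells, was lowest at 10 h, at 23.1 and 21.8 CPM, and stood at 54.1 and 48.5 CPM in plasmablasts. Which of naive cells and plasmablasts is higher depends on the scaling, since with TMM-scaled library sizes H2A was 69.9 and 65.4 in naive cells and 73.9 and 67.6 in plasmablasts. H1 summed to 14 and 15.1 CPM in naive cells, 4.26 and 3.56 CPM at 3 h and 25.5 and 22.4 CPM in plasmablasts, above every other stage. H2B fell from 25.1 and 22.5 CPM in naive cells to 2.91 and 4.27 CPM at 3 h and was 28.5 and 35.8 CPM at 33 h. These sums were not tested, since they are scores over chosen genes.

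Each type was carried by fewer genes in naive cells than at 33 h. In naive cells, H1f2 made up 88.7% of H1, H2ac18 and H2ac19 34.1% and 28.8% of H2A, H2bc21 63.4% of H2B and H4c9 63.9% of H4 CPM. The number of genes needed for 80% of the type's level was 1 for H1, 3 for H2A and 2 for H2B in naive cells. At 33 h it was 4 for H1, 10 for H2A and 9 for H2B. For H3 it went from 4 to 6 and for H4 from 4 to 5 at 33 h. H2ac11 then led H2A with 16.3%, H2bc11 led H2B with 22.3% and H3c3 led H3 with 35.7%. H4c9 led H4 at all 6 stages, at 42.5% to 63.9%.

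For tests, 63 members were among the 12750 genes that passed the filter on low counts. Those left out were H1f6, H2ac1, H2ac10, H2ac21, H2bc1 and H2bu1-ps. The testis genes H2ac1 and H2bc1, the germline linker histone H1f6 and the other 3 reached at most 37 counts over the 12 libraries, and H2ac10 had 0. By mean level per length (RPKM, CPM per kilobase of the gene with TMM-scaled library sizes), 29 of the 63 tested members were highest at 33 h, 17 in plasmablasts, 10 in expanded B cells, 6 in naive cells, 1 at 3 h and 0 at 10 h. Of the 12 H3 genes 9 peaked at 33 h, and of the 13 H4 genes 8 peaked in plasmablasts. The filter bears on all these counts. Of the 63 members, 36 reached its level (0.303 CPM) in at most 1 library up to 10 h and so entered through later stages. Peak stages were not counted over all 12750 genes. The plasmablast counts depend on the scaling, as the sums above do. H4c9, counted here with plasmablasts, was at 13.4 and 10.6 CPM of total counts in expanded B cells and 11.8 and 10 CPM in plasmablasts. Between these 2 groups 0 of the 13 H4 genes were called by the tests below.

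**Figure D2:**
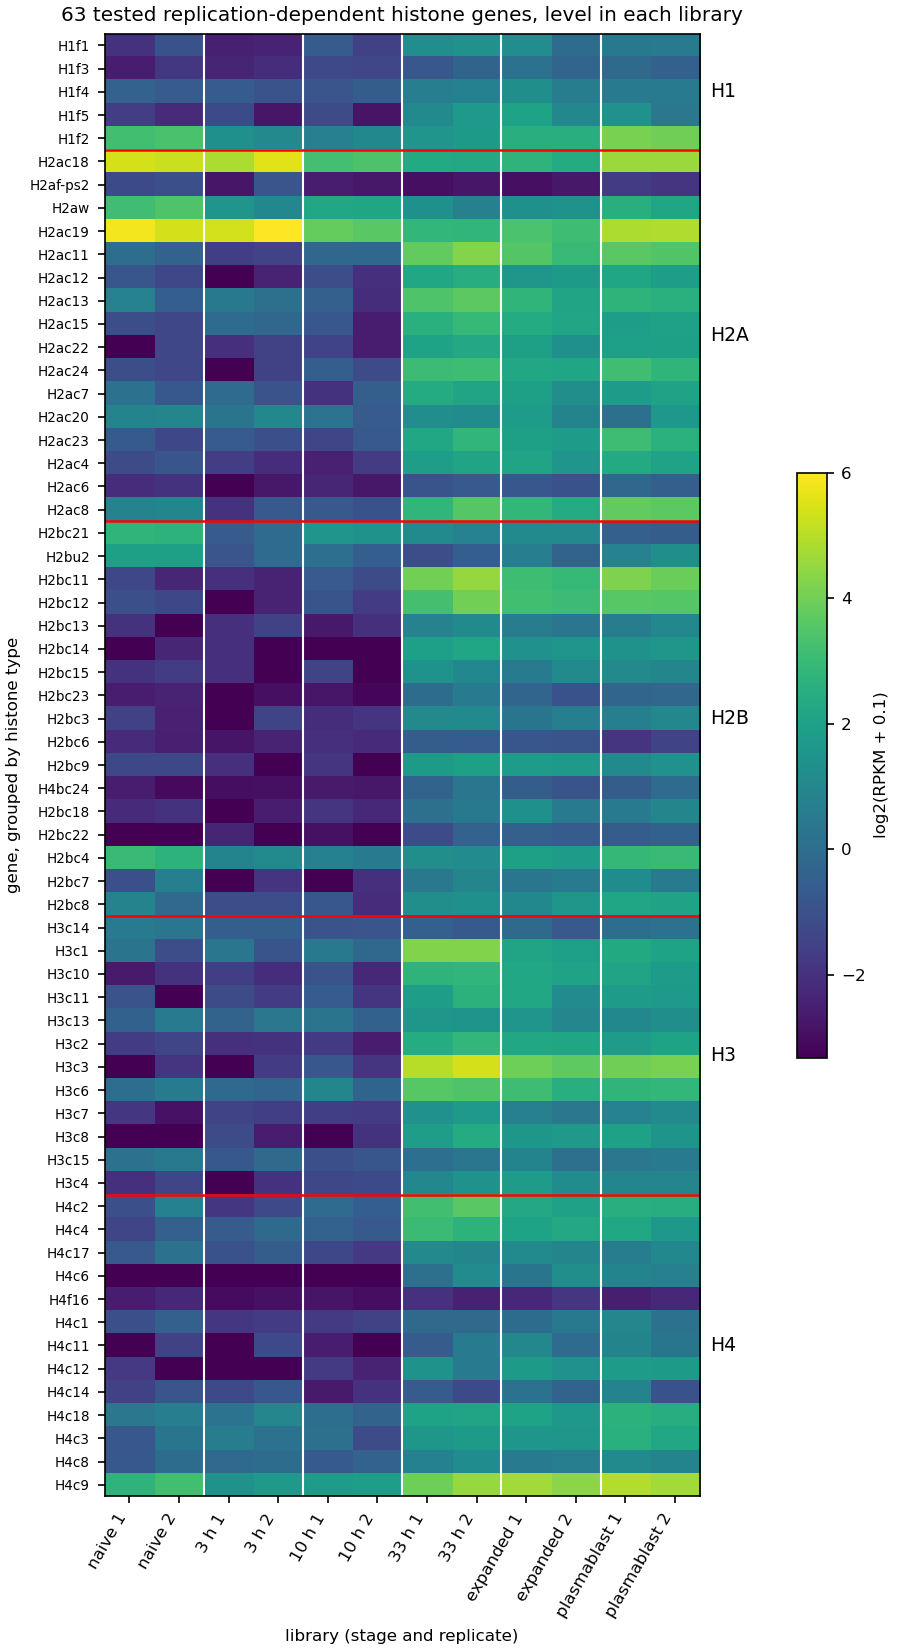
Level of each of the 63 tested members (rows, grouped by histone type and ordered by the stage with the highest mean) in the 12 libraries (columns), as colour on a scale of log2(RPKM + 0.1). Most rows are dark up to 10 h and lighter from 33 h, apart from rows such as H2ac18, H2ac19, H2bc21 and H1f2 that are light in naive cells.

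The transition from 10 h to 33 h leads from the growing, undivided cell to the cell about to divide. Of the 63 tested members, 48 rose and 1 fell (DE, that is, beyond 1.5-fold by edgeR's glmTreat at an adjusted p of 0.05). Among all 12750 genes 10.1% rose and 4.45% fell. The median log2 fold change of the members was 3.65 (quartiles 1.76 and 4.32), against -0.024 over all genes. Each type took part, with 3 of 5 H1, 11 of 16 H2A, 14 of 17 H2B, 10 of 12 H3 and 10 of 13 H4 genes rising. The quasi-likelihood F-test, which asks for a change of any size, called 55 rises and 4 falls, beside 23.2% and 22.2% of all genes. The filter needs a split here. Of the tested members, 36 reached its level (0.303 CPM) in at most 1 library of naive, 3 h and 10 h cells, so that they entered through the stages where they are high, and 33 of these rose. Of the 27 that reached it in at least 2 libraries up to 10 h, 15 rose and 1 fell, and of the 17 at that level in both 10 h libraries 7 rose and 1 fell. RNAs that have no poly(A) tail, of which 21 were in the table, summed to 5.23 and 2.6 CPM at 10 h and 7.18 and 7.07 CPM at 33 h. At the other stages their mean sum was 8.7 CPM in naive cells, 6.01 CPM at 3 h, 9.63 CPM in expanded B cells and 5.36 CPM in plasmablasts. Their part in the rise was not tested.

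H3c3, which encodes H3.2, was the highest of the H3 genes at 33 h. Its level was 0.476 and 0.165 RPKM at 10 h, from 11 and 3 counts, and 31.7 and 42.6 RPKM at 33 h, from 883 and 716 counts. The libraries of these stages do not come near each other, and its log2 fold change was 6.75 ± 0.37 (SE, adjusted p = 3.1e-08, edgeR glmTreat). H3c1, which encodes H3.1, rose from 1.3 and 0.79 RPKM to 18.9 and 18.6 RPKM, by 4.14 ± 0.33 on the log2 scale (adjusted p = 1.3e-06, edgeR glmTreat). H3c2 went from 0.202 and 0.0643 RPKM to 5.37 and 7.15 RPKM. H3c8 had 0 and 3 counts at 10 h and 101 and 90 counts at 33 h, a ratio of 58.8 with a 95% counting interval of 19.8 to 288. All 4 H3.1 genes and 6 of the 8 H3.2 genes rose, with median log2 fold changes of 4.33 and 2.96. H3c14 and H3c15, the H3.2 genes that led H3 in naive cells, were not called by glmTreat, at 0.43 and 1.30, though the F-test and DESeq2's Wald test called a rise of H3c15 (adjusted p = 0.01 and 0.014).

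Among H2B genes, H2bc14 had 0 counts in both 10 h libraries and 82 and 59 counts at 33 h, which is at least 43.4-fold higher when 3 counts over the 10 h libraries are taken as the floor. H2bc11 rose from 0.545 and 0.347 RPKM to 16.2 and 22.8 RPKM (log2 fold change 5.38 ± 0.32, adjusted p = 7.8e-08, edgeR glmTreat). H2bc12, whose promoter is shown above, rose from 0.436 and 0.208 RPKM to 9.5 and 16.2 RPKM, by 5.21 on the log2 scale. H2bc9 and H2bc23 rose by 5.14 and 5.02. H2bc4 and H2bc21, the H2B genes that were highest in naive cells, had log2 fold changes of 0.61 and -0.57 and were not called by glmTreat, though the F-test called H2bc4 higher and H2bc21 lower (adjusted p = 0.036 and 0.021) and DESeq2's Wald test H2bc21 (adjusted p = 0.022).

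In H2A, H2ac13 rose by 4.78 on the log2 scale, from 0.635 and 0.135 RPKM to 10.6 and 12.5 RPKM. H2ac11 rose by 4.35, from 0.791 and 0.783 RPKM to 13.4 and 19.1 RPKM. Against these, H2ac18 and H2ac19 had lower values at 33 h than at 10 h in each library, but were not DE (log2 fold changes -1.0 and -0.89, adjusted p = 0.068 and 0.16, edgeR glmTreat). The F-test and DESeq2's Wald test called both lower. H2aw on chromosome 11 was the member that fell, from 4.63 and 4.33 RPKM to 2.46 and 1.56 RPKM, by 1.13 on the log2 scale (adjusted p = 0.028, edgeR glmTreat). Its span overlaps Trim17. The call on H2aw was lost when 10 h replicate 1, 10 h replicate 2 or 33 h replicate 2 was left out, at -1.08, -1.18 and -0.86.

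H4c9, which had the highest level of the H4 genes throughout, rose from 3.37 and 3.69 RPKM to 15.3 and 23.6 RPKM (log2 fold change 2.45 ± 0.24, adjusted p = 1.7e-05, edgeR glmTreat). H4c2 and H4c4 rose by 3.80 and 3.60 to 9.01 and 12.1 RPKM and to 8.07 and 6.49 RPKM. H4c6 was at 0 counts in all 6 libraries up to 10 h and at 18 and 24 counts at 33 h, at least 12.9-fold higher. Of the linker histones, H1f5 rose by 3.65 and H1f4 by 1.59, while H1f2 stood at 1.56 and 1.93 RPKM and then 2.84 and 3.31 RPKM, which was not called by glmTreat (0.82, adjusted p = 0.15) but was by the F-test and DESeq2.

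**Figure D3:**
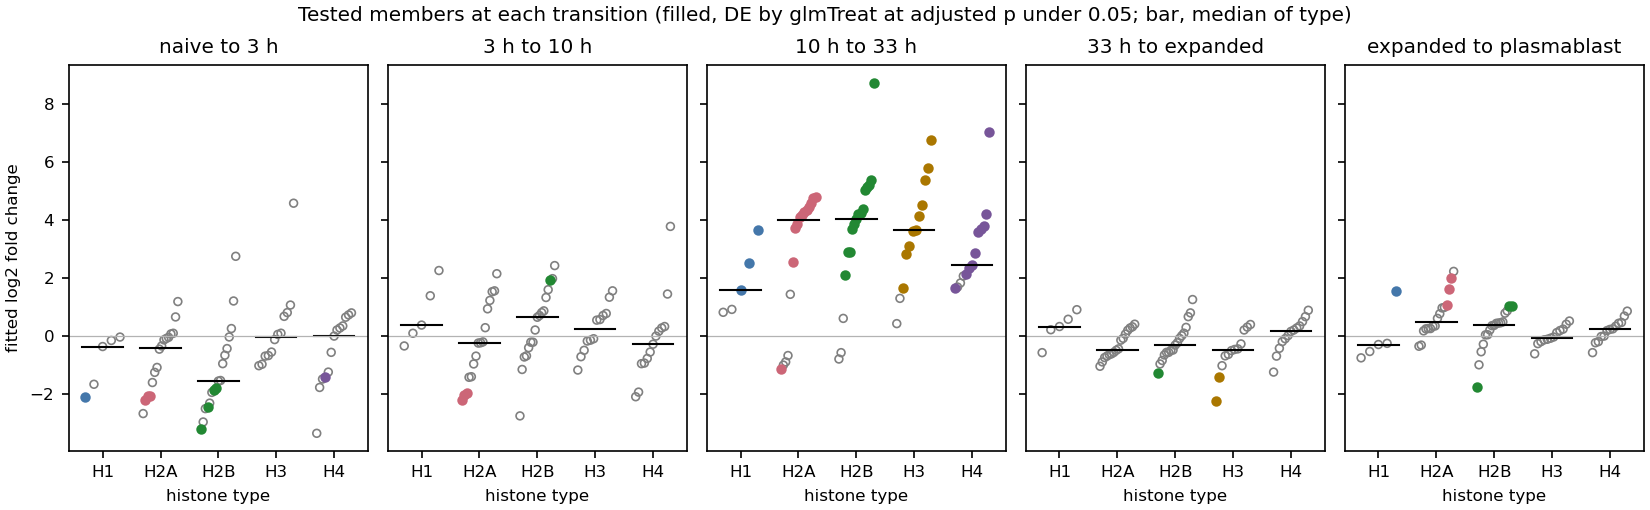
Fitted log2 fold change of each tested member (points, by histone type) at the 5 consecutive transitions; filled points are DE, and bars are the median of the type. At 10 h to 33 h 48 members are filled above 0, and at the other transitions at most 9 are filled in either direction. Points of genes at 0 counts in one stage depend on the prior count of the fit and are no bounds.

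By position, on chromosome 13, 46 of 51 tested members rose from 10 h to 33 h (median 3.85), beside 10.1% of all genes. All 18 between 21715711 and 21837530 and all 5 between 22035122 and 22043658 did, with medians of 4.16 and 4.35, as did 23 of 27 between 23531044 and 23934913, with a median of 3.60. H2af-ps2, alone at 51200084, was not called. On chromosome 3, 2 of 9 rose, with a median of 1.30, and the summed level there was 20.8 and 19.7 CPM at 10 h and 15.5 and 14.2 CPM at 33 h. The filter bears on these counts and on those of the pairs below, since 36 of the 63 tested members entered through stages after 10 h. No split by the filter was made here, and the difference between chromosomes was not tested. Many H2A and H2B genes lie head to head and share a promoter region. In 12 such pairs the starts are 164 to 281 bases apart, and in 9 of the 11 pairs with both genes tested both rose. In the other pairs H2ac6 rose by 2.54 and H2bc4, 240 bases away, was not called (0.61), and neither H2ac20 (1.44) nor H2bc21 (-0.57), 192 bases apart, was called by glmTreat. H2ac11 and H2bc11, with starts 249 bases apart, reached 16.2 and 19.5 RPKM on average at 33 h, and H2ac22 and H2bc22, 240 bases apart, reached 4.52 and 0.51 RPKM.

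By the annotated 3′ end, where every transcript ends within 100 bases of the stem-loop, 20 of 23 tested members rose, with a median of 4.14. Where a transcript runs further, 13 of 22 rose and 1 fell, with a median of 2.13. Members of the first kind summed to 14.5 and 14 CPM at 10 h and 67.6 and 85.3 CPM at 33 h, and those of the other kind to 20.4 and 19.2 CPM and to 45 and 53.4 CPM. Among members without a stem-loop match 15 of 18 tested rose, with a median of 3.77. The split by the filter was not made within these kinds. The 13 genes with an ATTTGCAT match, of which 11 were tested, had 9 that rose and a median of 3.69, close to the median of all members. These features were examined after the members were known, and no difference between them was tested.

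From naive to 3 h, 9 members fell and 0 rose by glmTreat, beside 24.3% and 21.0% of all genes. The F-test called 13 falls and 0 rises, and at an unadjusted glmTreat p under 0.05 there were 13 falls and 0 rises as well. DESeq2's Wald test called 1 rise, of H3c8, which had 0 counts in naive cells and 3 and 1 counts at 3 h. The median log2 fold change was -0.55 against -0.031 over all genes. H2bc21 went from 6.76 and 6.44 RPKM to 0.532 and 0.865 RPKM, a fall by 3.19 on the log2 scale (SE 0.21, adjusted p = 8e-08, edgeR glmTreat). H1f2 went from 9.03 and 9.91 RPKM to 2.46 and 2 RPKM, a fall by 2.10 (adjusted p = 1.1e-06, edgeR glmTreat). H2aw fell from 8.74 and 10.7 RPKM to 2.8 and 1.95 RPKM, and H2bc4 from 7.95 and 6.44 RPKM to 1.76 and 2.12 RPKM. H4c9, H2bu2, H2ac8, H2bc8 and H2ac6 were the others, with log2 fold changes of -1.41 to -2.46. The calls on H2ac6 and H2bc8 are weak, with adjusted p = 0.047 and 0.036 (edgeR glmTreat). H2ac6 lost its call without either naive library or without 3 h replicate 1, at -2.20, -1.94 and -1.40, and without several libraries of later stages, and H2bc8 lost its call without naive replicate 1 or either 3 h library, at -1.14, -1.76 and -1.84.

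H2ac18 and H2ac19, which encode the same H2A protein, were not called at this step. H2ac18 was at 41.9 and 37.8 RPKM in naive cells, 28.9 and 47.9 RPKM at 3 h, 9.31 and 10.5 RPKM at 10 h, 5.04 and 4.79 RPKM at 33 h, 6.63 and 5.3 RPKM in expanded B cells and 24.2 and 23.9 RPKM in plasmablasts. The naive libraries lie between those at 3 h, and the log2 fold change there was -0.04. H2ac19 took the same course, from 56.7 and 42.5 RPKM in naive cells and 41.6 and 64.1 RPKM at 3 h to 7.15 and 6.9 RPKM at 33 h and 28.8 and 29.4 RPKM in plasmablasts. Their reads are hard to separate, since every 81-base window (the read length) of the H2ac19 transcript is also in that of H2ac18, and 88.5% of the windows of H2ac18 are in that of H2ac19. Together they summed to 41.1 and 33.3 CPM in naive cells, 25.8 and 42.5 CPM at 3 h, 10.8 and 10.9 CPM at 10 h, 5.48 and 5.3 CPM at 33 h, 7.45 and 6.09 CPM in expanded B cells and 18.5 and 18.2 CPM in plasmablasts.

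**Figure D4:**
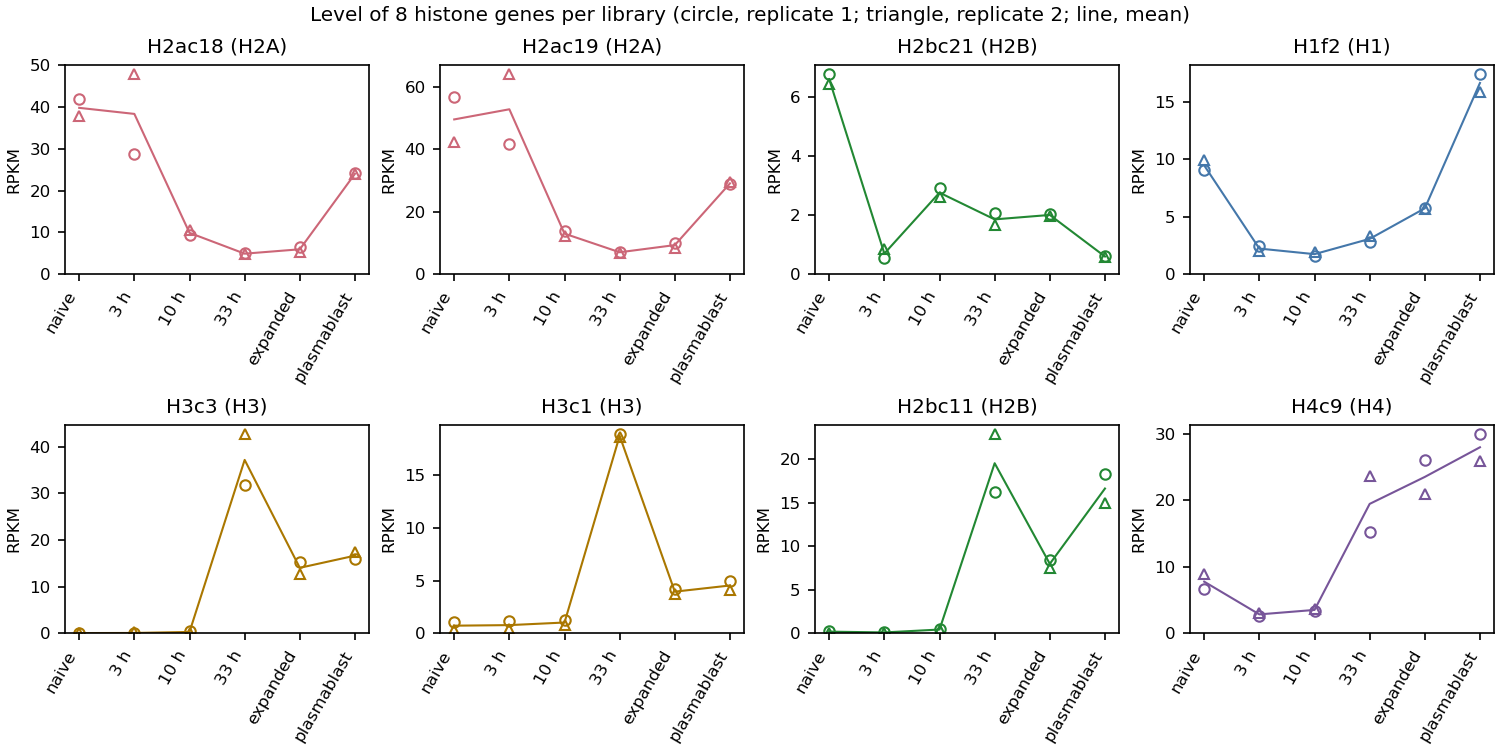
Level (RPKM, vertical axes from 0 and with their own scale) of 8 members at the 6 stages, with a point per library and a line through the mean. H2ac18, H2ac19, H2bc21 and H1f2 in the upper row are lower at 10 h than in naive cells, and H3c3, H3c1, H2bc11 and H4c9 in the lower row are higher at 33 h than at 10 h.

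From 3 h to 10 h few members moved. Of the 63, 1 rose and 3 fell, beside 17.4% and 13.4% of all genes, and the median was 0. At an unadjusted glmTreat p under 0.05, 5 rose and 3 fell. The F-test called 4 rises and 3 falls, beside 32.1% and 30.2% of all genes. Scaling by library size without TMM moved the median of all genes from 0.018 to 0.35 and gave 4 rises and 2 falls. H2ac18 and H2ac19 fell by 1.97 and 2.03 on the log2 scale (adjusted p = 2.9e-05 and 2.2e-05, edgeR glmTreat). H2bc21 rose again, to 2.91 and 2.61 RPKM, by 1.93 ± 0.21 (adjusted p = 5.3e-05, edgeR glmTreat). The fall of the pseudogene H2af-ps2 rests on 1 library. Its 3 h counts were 3 and 48, its 10 h counts 11 and 7, and the log2 fold change of -2.20 became 0.33 without 3 h replicate 2.

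From 33 h to expanded B cells, 3 members fell and 0 rose, beside 3.66% and 6.94% of all genes, and the median was -0.23 against -0.022. The F-test called 9 falls and 3 rises, beside 21.2% and 18.5%, and DESeq2's Wald test for a change of any size 8 and 2. At an unadjusted glmTreat p under 0.05, 7 fell and 2 rose. H3c1 fell to 4.22 and 3.71 RPKM, by 2.24 on the log2 scale (SE 0.28, adjusted p = 3.7e-04, edgeR glmTreat). H3c3 fell to 15.4 and 12.7 RPKM, by 1.40 (adjusted p = 0.0083, edgeR glmTreat), and H2bc11 to 8.47 and 7.48 RPKM (adjusted p = 0.013, edgeR glmTreat). The calls on H3c3 and H2bc11 were lost without 33 h replicate 2, at -1.18 and -1.02, and without expanded replicate 2, at -1.27 and -1.19. Of the 13 H4 genes 0 were DE here by glmTreat, 1 by the F-test and 1 by DESeq2, with 1 at an unadjusted p under 0.05, and their median was 0.16.

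From expanded B cells to plasmablasts, sorted on the same day, 6 members rose and 1 fell, beside 13.9% and 12.2% of all genes. The median was 0.25 against -0.046. Markers of other cells moved at this step too. Of 9 tested T cell markers, Cd28, Cd5 and Cd3g rose and Lck fell, with the sum going from 39.1 and 44.2 to 76.8 and 83.8 CPM, and of 9 tested myeloid markers Itgam and Adgre1 fell, with the sum going from 37.5 and 35.4 to 0.372 and 0.633 CPM. Single markers of a list differed, since Cd3e and Lyz2 held at most 1 and 0 counts in these 4 libraries while Cd3g rose. The part of other cells at this step was not tested. The F-test called 10 rises and 2 falls, beside 27.2% and 29.7%. Scaling by library size without TMM moved the median of all genes to -0.38 and that of the members to -0.088, with 3 rises and 2 falls. H2ac18 rose by 2.00 and H2ac19 by 1.64 on the log2 scale (adjusted p = 4.3e-05 and 3.3e-04, edgeR glmTreat). H1f2 rose from 5.8 and 5.67 RPKM to 17.4 and 15.9 RPKM, its highest level, by 1.54 ± 0.15 (adjusted p = 3.7e-05, edgeR glmTreat). H2ac8, H2bc11 and H2bc4 rose by 1.07, 1.05 and 1.04, and each of these calls was lost when expanded replicate 2 was left out, at 0.86, 0.96 and 0.97. All 3 were also lost when TMM was left out, at 0.73, 0.71 and 0.71. H2bc21, which is on chromosome 3 like H2ac18 and H2ac19, fell from 2.03 and 1.98 RPKM to 0.631 and 0.566 RPKM, by 1.75 (adjusted p = 2.2e-04, edgeR glmTreat). Of the 12 H3 and 13 H4 genes 0 were called by glmTreat, by the F-test or by DESeq2's Wald test, and 0 had an unadjusted glmTreat p under 0.05.

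Set against naive cells, expanded B cells differed in most members, with 46 higher and 7 lower, beside 24.9% and 22.2% of all genes, and a median log2 fold change of 2.67 against 0.032. The filter bears on this count too, since 36 of the 63 members entered through stages after 10 h, and no split was made here. Requiring at least 10 counts in every library, which removes genes near 0 in naive cells by construction, left 9 members. Of these 2 were higher, and the median was -1.0. H3c3 was 7.50 ± 0.54 higher (adjusted p = 1.2e-07, edgeR glmTreat). H3c10 was 5.30 higher and H2bc12 4.58 higher. H4c6 and H3c8 were at 0 counts in naive cells. The 7 lower genes were H2ac18 (-2.74), H2ac19 (-2.41), H2aw (-1.93), H2bu2 (-1.78), H2bc21 (-1.72), H2bc4 (-0.99) and H2af-ps2 (-3.14). The calls on H2bc4 and H2bu2 were lost without expanded replicate 2, at -0.91 and -1.34, and that on H2bc4 without naive replicate 1 as well, at -0.82. This comparison shares its libraries with those of single steps and repeats part of them.

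Factors that make and process histone mRNA were listed by name. Of 17 tested genes of this list, 8 rose from naive to 3 h (21.0% of all genes did), 1 rose and 6 fell from 3 h to 10 h (17.4% and 13.4%), and 3 rose and 1 fell from 10 h to 33 h (10.1% and 4.45%). Slbp, whose protein binds the stem-loop, stood at 40.9 and 38.5 RPKM at 10 h and 103 and 105 RPKM at 33 h (log2 fold change 1.39 ± 0.12, adjusted p = 3.1e-05, edgeR glmTreat). Npat, the coactivator of histone transcription in S phase, rose from naive to 3 h by 1.07 (adjusted p = 8.6e-05, edgeR glmTreat). From 10 h to 33 h Npat changed by 0.44, which glmTreat did not call but the F-test and DESeq2's Wald test did. Casp8ap2 (FLASH), part of the machinery that cuts the 3′ end, changed by 0.68 there and was likewise called by these 2 tests and not by glmTreat. Lsm10 and Lsm11 belong to the U7 particle that guides this cut. Lsm11 rose by 1.06 at 3 h and fell by 1.14 at 10 h, and Lsm10 passed at no transition. Zfp473, a further factor of the U7 pathway, rose by 2.79 at 33 h and by 1.18 in plasmablasts. Eri1, an exonuclease that trims histone mRNA ends, was near the threshold at 33 h (0.78, adjusted p = 0.029, edgeR glmTreat), and lost its call without either 10 h library or without 33 h replicate 2, at 0.76, 0.80 and 0.76.

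Genes of DNA replication were listed in the same way. Of 45 tested, 23 rose and 2 fell from 3 h to 10 h, beside 17.4% and 13.4% of all genes, and 42 rose from 10 h to 33 h, beside 10.1%, with a median of 1.66. Rrm2, a ribonucleotide reductase subunit, rose by 1.87 at 10 h and by 4.44 at 33 h, and Ccna2, cyclin A2, by 1.29 and 4.50. Of the histone chaperones, 4 of 17 rose at 10 h, where 17.4% of all genes did, 8 of 17 rose at 33 h, where 10.1% did, and 5 fell in plasmablasts, where 12.2% did. Asf1b, which hands H3 and H4 to the replicating DNA, rose from 9.31 and 8.4 RPKM to 60.7 and 67.7 RPKM at 33 h (log2 fold change 2.86 ± 0.11, adjusted p = 3.9e-09, edgeR glmTreat). Chaf1b, of the chromatin assembly factor CAF-1, rose by 2.77 at 33 h and fell by 0.92 in expanded B cells and by 0.80 in plasmablasts.

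Replacement histones mostly lie outside the clusters and in general have polyadenylated mRNA. Of the 10 tested replacement histones, 3 rose and 1 fell at 33 h, beside 10.1% and 4.45% of all genes. Macroh2a1 was the highest of those named, at 166 and 164 RPKM at 10 h and 177 and 172 RPKM at 33 h, and fell by 0.92 in plasmablasts. H1f0, the linker histone of differentiated cells, stood at 2.67 and 4.04 RPKM at 33 h, 14 and 14.6 RPKM in expanded B cells and 55.9 and 52.5 RPKM in plasmablasts, rising by 2.11 and then by 1.92 (adjusted p = 1.0e-04 and 5.2e-05, edgeR glmTreat). H1f2 rose at the same step, whereas 4 of the 5 tested replication-dependent H1 genes were not called there. Cenpa, the H3 of centromeres, rose by 2.39 at 33 h and by 1.51 in expanded B cells.

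The near identity of many of these genes limits single values. Of 68 members with a transcript, 26 shared over 50% of their 81-base windows with another member and 9 shared none, with a median of 38%. H2bc23 shared 94.9% with H4bc24 and H3c3 28.9% with H3c2, whereas H2bc21, H2bu2, H1f1 and H1f5 shared none. The split of reads between close copies is uncertain. Lengths in the table also differ in what they cover. The commonest length was 393 bases for H2A (8 of 19), 381 for H2B (7 of 19) and 312 for H4 (8 of 13), all multiples of 3, against up to 3480, 2618 and 2879 bases in the same types, so that levels per length are comparable between stages and less so between members.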

How the data were processed

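The authors made TruSeq libraries from poly(A) RNA, sequenced them on a NextSeq 500 in paired reads of 81 bases, aligned them to mm10 with Rsubread 1.28.0 and counted genes of its inbuilt Entrez annotation with featureCounts. The deposited values are raw counts per gene, neither normalized nor filtered, with each gene's length in bases. How reads that align to several copies were counted is not given in the sources used here, and strand was not treated as known. The 12 single-sample tables held the same counts as the series table (0 differences). Of the IDs, 25275 matched RefSeq (GRCm38.p6) and 1904, with 1.41% to 2.08% of counts, did not.

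After the methods of the study, unmatched IDs and mitochondrial (4.94% to 11.5% of counts), ribosomal RNA, X and Y chromosome genes and variable immunoglobulin segments were removed, which left 23700 genes, of which filterByExpr (minimum count 10) kept 12750. edgeR 4.0.16 in R 4.3.3 was run with TMM, robust quasi-likelihood dispersions (the method of earlier versions) and a one-way layout over all 12 libraries. glmTreat tested against 1.5-fold, with Benjamini-Hochberg adjustment over all tested genes at 0.05. All tests are two-sided, and standard errors come from the quasi-likelihood F statistic. RPKM were computed from the counts, the deposited lengths and TMM-scaled library sizes, CPM from total counts. The steps were tested on simulated data with known changes. With 2 libraries a group, p-values rest on a spread shared between groups.

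The members follow a rule on names alone, but this rule and the lists were set with earlier results of these data known. Genes named are, per comparison, up to 10 DE members with the largest rise and fall, the 3 highest members of each type, members highest in naive cells, 7 factors of histone mRNA and the 2 genes of each other list that changed most at 10 h to 33 h and in plasmablasts. Members that were not called are named where a sentence contrasts them, which was chosen after their values were seen. Alternatives were other scalings, filters, dispersions, DESeq2 1.42.0, a replicate block, fits to 4 libraries, keeping the removed genes and leaving out each library.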

Additional observations from a re-analysis of the deposited data

How the results depend on the processing

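Of 437 alternative values of counts, medians and sums, 386 stayed within 1.5 times the reported count or within the spread between libraries, and of 1358 values of named genes 1294 kept direction and call, 59 lost the call, 4 gained it and 1 reversed. The reversed value is that of H2af-ps2 from 3 h to 10 h, 0.33 without 3 h replicate 2 and -2.89 without 3 h replicate 1. Requiring at least 10 counts in every library left 9 members, which removes genes near 0 before 33 h by construction: 2 rose from 10 h to 33 h (median 0.45) and 2 from naive to expanded (median -1.0), 0 fell from 33 h to expanded (median 0.35), and the medians were -1.48 from naive to 3 h, -0.33 from 3 h to 10 h and 0.99 from expanded to plasmablast. Without a filter, 1 member rose from naive to 3 h, 4 rose from 3 h to 10 h, 2 fell from 10 h to 33 h and the median from naive to expanded was 2.29. With library size alone, the median from naive to 3 h was -0.75, 4 rose from 3 h to 10 h, and from expanded to plasmablast 3 rose, 2 fell and the median was -0.088. The F-test gave 4 rises from 3 h to 10 h, 4 falls from 10 h to 33 h, 3 rises and 9 falls from 33 h to expanded, and 10 rises and 2 falls in plasmablasts. DESeq2 for a change of any size gave 1 rise from naive to 3 h, 3 rises from 3 h to 10 h, 4 falls from 10 h to 33 h and 2 rises and 8 falls from 33 h to expanded, and against 1.5-fold 0 falls from 10 h to 33 h and 3 rises in plasmablasts. The newer quasi-likelihood method gave 1 rise from 33 h to expanded, and fits to 4 libraries a median of -0.38 from naive to 3 h over 23 members. TMM-scaled sizes put the H1 sum at 33 CPM in plasmablasts (23.9 reported) and the H2A sum at 67.7 CPM in naive cells (59.1 reported) and 70.8 CPM in plasmablasts (51.3 reported), which turns their order. Apart from the filter, the cause of these differences was not tested.

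When each library was left out in turn, 1 to 2 members rose from 3 h to 10 h, 0 to 2 fell from 10 h to 33 h, 0 to 1 rose and 1 to 4 fell from 33 h to expanded, and 3 to 8 rose from expanded to plasmablast, with 3 without expanded replicate 2. The median ran from -0.86 (without 3 h replicate 2) to -0.48 from naive to 3 h, from 3.09 (without 10 h replicate 2) to 3.67 from 10 h to 33 h, and from 2.34 (without expanded replicate 1) to 2.84 from naive to expanded. Where a group keeps a lone library, it is assumed to vary like the other groups.

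Replicate numbers gave no clear sign of paired libraries: over 15 pairs of groups the deviations of same-numbered libraries correlated at -0.139 to 0.0841, with 0 pairs over 0.1. Each correlation runs over all tested genes together, so pairing that touches fewer genes is not excluded by it. With the replicate block, 48 members rose and 1 fell from 10 h to 33 h, 5 rose and 1 fell from expanded to plasmablast, and H2ac6 from naive to 3 h (-2.05, adjusted p = 0.061, edgeR) and H2ac8 in plasmablasts (1.06, adjusted p = 0.053, edgeR) passed no longer. Depth limits genes at 0 to 3 counts in a stage, whose fold changes are bounds or wide ratios.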
